A study of Mus musculus with 2 samples.

Results

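The genes described here are the G protein-coupled receptors measured in RNA of mouse pancreatic islets, the endocrine part of the pancreas. They were chosen by name from the deposited table of read counts. The rule took protein-coding genes named as numbered Gpr genes or as Gprc, adhesion, adrenergic, serotonin, muscarinic, P2Y nucleotide, free fatty acid, somatostatin, galanin, neuropeptide Y, prostaglandin E2, sphingosine 1-phosphate or lysophosphatidic acid receptors, together with Glp1r, Gipr, Gcgr, Ghsr, Adcyap1r1, Vipr1, Casr, Avpr1b and Drd2. Of 183 genes with such names, 107 had at least 10 reads over both libraries and are the members, out of 54532 genes in the table, of which 17709 had that many.

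The study set islets with a Brsk2 transgene against wild-type islets. Brsk2 is a protein kinase related to AMPK. The transgenic library came from male C57BL/6 mice of a line labelled Line20, and its wild-type counterpart from males of the same strain. Doxycycline, which induces transgenes built to respond to it, was given to both genotypes for 4 days in the water they drank, when 8 to 10 weeks old, and the age of the animals is labelled 10 to 12 weeks. The promoter behind the transgene, and the number of mice in a library, were not given in the sources used here.

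G protein-coupled receptors span the cell membrane and pass the binding of a ligand outside the cell to heterotrimeric G proteins inside it. Receptors coupled to Gs raise cyclic AMP, those coupled to Gi lower it, and those coupled to Gq release calcium from internal stores. In beta cells, receptors for incretin hormones, acetylcholine and fatty acids strengthen insulin secretion stimulated by glucose, while receptors for somatostatin, galanin and catecholamines restrain it.

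Each genotype had 1 library, so the spread among animals is unknown and none of the differences was tested across animals. Reads assigned to genes numbered 16832312 in the transgenic and 20389499 in the wild-type library. Ratios divide the transgenic by the wild-type CPM (counts relative to library size, with TMM factors applied), and square brackets hold the exact 95% interval, which covers counting error only. A gene was called higher or lower if the ratio was past 1.5-fold and 1 lay outside the interval. RPKM, used to compare levels between genes, is CPM per kilobase of the gene length in the count table. Brsk2 itself had 94.3 CPM transgenic and 36.4 CPM wild type, a ratio of 2.59 [2.37, 2.83]. Markers of islet cell types differed between the libraries: 6 of 10 beta cell markers were lower and 0 higher (summed 194819 CPM transgenic, 255915 CPM wild type), 3 of 7 measured alpha cell markers were higher and 0 lower (31299 CPM transgenic, 19712 CPM wild type), and, among 7 markers of delta, gamma and epsilon cells, 1 was higher and 0 lower (10000 CPM transgenic, 6856 CPM wild type). All 16 acinar cell markers were higher (52922 CPM transgenic, 12036 CPM wild type). None of the markers on these 4 lists was at 0 reads in either library. In RNA of whole islets, fewer cells of a type and less RNA per cell cannot be told apart.

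Of the 107 receptors, 7 were higher in the transgenic library, 12 were lower and 88 were neither. The higher receptors were Sstr2, Ffar4, Gpr119, Ptger3, Lpar6, P2ry1 and Gpr137c. The lower ones were Glp1r, Adra2a, Chrm3, Gprc5c, Gpr158, Gpr182, Gpr37l1, Ptger4, S1pr3, Adgrl3, Adgrd1 and Gpr132. The 7 higher receptors made up 6.54% of the 107, against 7.78% of all 17709 genes, and the 12 lower ones made up 11.2%, against 5.89% of all genes. Among the 63 receptors with 100 or more reads in all, 7 (11.1%) were higher and 9 (14.3%) lower, against 5.17% and 5.43% of 11390 protein-coding genes with that many reads. The shares among all genes, 7.78% higher and 5.89% lower, are also the background for the counts by class and list below. The median log2 ratio was 0.02 over the 107 receptors and 0.01 over all genes. When the libraries were scaled to endocrine granule genes in place of TMM factors, which put the median log2 ratio of all genes at -0.10, the calls were 5 higher and 14 lower: Gpr119 and Lpar6 were no longer called, and Sstr3 and P2ry6 were.

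Few ratios were large. Past 2-fold there was 1 higher receptor, Gpr137c (0.935% of the members), against 4.26% of all genes, and there were 3 lower ones, Adgrl3, Adgrd1 and Gpr132 (2.80%), against 2.53% of all genes. Where the interval bound itself had to pass 1.5-fold, 4 receptors were higher (Sstr2, Ffar4, P2ry1 and Gpr137c; background 2.47%) and 3 lower (Glp1r, Gpr158 and Adgrl3; background 2.04%). No member was among the 108 genes of the authors' deposited table of differences, whose smallest log2 fold change in absolute value was 1.57. Here 1 member, Gpr137c, was past that value, with a log2 ratio of 1.58. The pattern by name also took in 9 genes that are ion channels or not established as coupled to G proteins, among them Htr3a, Gpr89, Gpr107 and Gpr180; without them 6 receptors were higher, as Gpr137c was among the 9, and 12 lower.

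**Figure D1:**
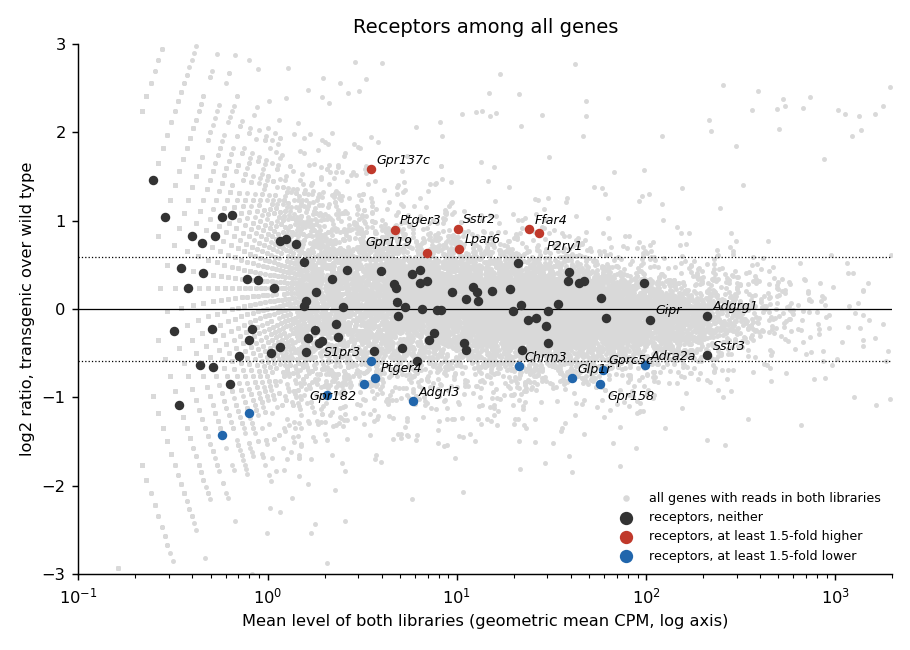
Each point is a gene, with the geometric mean CPM of both libraries on a log horizontal axis and the log2 ratio of transgenic over wild type on the vertical axis, which ends at 3 in either direction, so that some genes beyond the axes are not shown. Receptors are dark or coloured, all other genes grey, dotted lines mark 1.5-fold, and 7 receptors above and 12 below carry a colour.

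Promoter sequences of 2 higher receptors, Sstr2 and Ffar4, and 2 lower ones, Gpr158 and Glp1r, are shown as examples. They were picked as the receptors with ratios furthest from 1 in each direction that had at least 100 reads and a single entry in the promoter table, leaving out Gpr137c, which is not established as a G protein-coupled receptor. Each covers 250 bases before to 50 bases after the start of the gene in RefSeq on GRCm38.p6, read 5′ to 3′ along the gene: chr11:113619077-113619376 (plus strand) for Sstr2, chr19:38096829-38097128 (plus strand) for Ffar4, chr2:21367317-21367616 (plus strand) for Gpr158 and chr17:30901617-30901916 (plus strand) for Glp1r. Capitals mark matches to 4 motifs searched on both strands: the full cyclic AMP response element TGACGTCA, its core TGACG (which lies inside the full element), the TATA box TATAAA and the CAAT box CCAAT.
Sstr2: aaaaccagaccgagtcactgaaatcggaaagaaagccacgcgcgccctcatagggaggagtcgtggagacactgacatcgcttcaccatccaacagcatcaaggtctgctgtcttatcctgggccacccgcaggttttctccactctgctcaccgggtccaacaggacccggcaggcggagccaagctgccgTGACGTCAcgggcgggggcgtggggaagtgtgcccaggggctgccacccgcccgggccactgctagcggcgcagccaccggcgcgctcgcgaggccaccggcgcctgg
Ffar4: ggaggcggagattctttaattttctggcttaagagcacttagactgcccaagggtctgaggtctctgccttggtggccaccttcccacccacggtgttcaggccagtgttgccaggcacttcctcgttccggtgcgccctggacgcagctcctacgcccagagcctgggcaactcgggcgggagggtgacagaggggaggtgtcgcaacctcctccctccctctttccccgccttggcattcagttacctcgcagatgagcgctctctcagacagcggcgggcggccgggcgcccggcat
Gpr158: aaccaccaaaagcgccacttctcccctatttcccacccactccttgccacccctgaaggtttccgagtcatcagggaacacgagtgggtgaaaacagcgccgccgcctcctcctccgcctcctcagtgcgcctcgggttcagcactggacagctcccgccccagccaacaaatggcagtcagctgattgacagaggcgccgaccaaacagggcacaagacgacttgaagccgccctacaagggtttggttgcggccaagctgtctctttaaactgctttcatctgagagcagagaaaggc
Glp1r: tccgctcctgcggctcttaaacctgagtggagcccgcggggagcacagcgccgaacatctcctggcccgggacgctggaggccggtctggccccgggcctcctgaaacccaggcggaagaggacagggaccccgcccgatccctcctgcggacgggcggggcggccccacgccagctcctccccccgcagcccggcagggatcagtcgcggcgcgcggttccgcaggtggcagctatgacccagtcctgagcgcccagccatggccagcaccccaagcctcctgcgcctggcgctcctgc
Of these 4 windows, that of Sstr2 held the full cyclic AMP response element, and the other 3 held no match to any of the 4 motifs. Windows not shown did hold matches: that of Gpr137c had 3 CAAT boxes. That of Ptger4, the next lower receptor by the same choice, had 1. The full element was present in 1.79% of 32851 mouse promoter windows of the same length and in those of 3 of the 81 receptors with an entry in the table. The core TGACG was present in 20.8% of all windows, and in 2 of 7 higher, 2 of 9 lower and 23 of 65 other receptors. Some receptors have several windows, which raises the chance of a match. A match describes the letters only, and which start site islets used is not shown by gene counts.

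Sstr3 was the most abundant receptor per length in both libraries, at 40.6 RPKM in the transgenic and 58.2 RPKM in the wild-type library. Adgrg1 came next, at 37.9 RPKM transgenic and 39.9 RPKM wild type. In the transgenic library Gipr (28.9 RPKM), Ffar4 (23.6 RPKM) and Gpr180 (22.9 RPKM) followed, and in the wild-type library Glp1r (36.2 RPKM), Adra2a (32.5 RPKM) and Gipr (31.5 RPKM). The places of Glp1r and Adra2a rest on the gene lengths of the count table: with those of GENCODE M21, Glp1r would stand at 5.35 RPKM transgenic and 9.21 RPKM wild type, and Adra2a at 16.4 RPKM transgenic and 25.6 RPKM wild type, below Gipr in both libraries. The values with GENCODE lengths use the deposited read counts, which may lack reads over exon bases outside the table's gene lengths. The median receptor stood at 0.830 RPKM transgenic and 1.02 RPKM wild type.

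**Figure D2:**
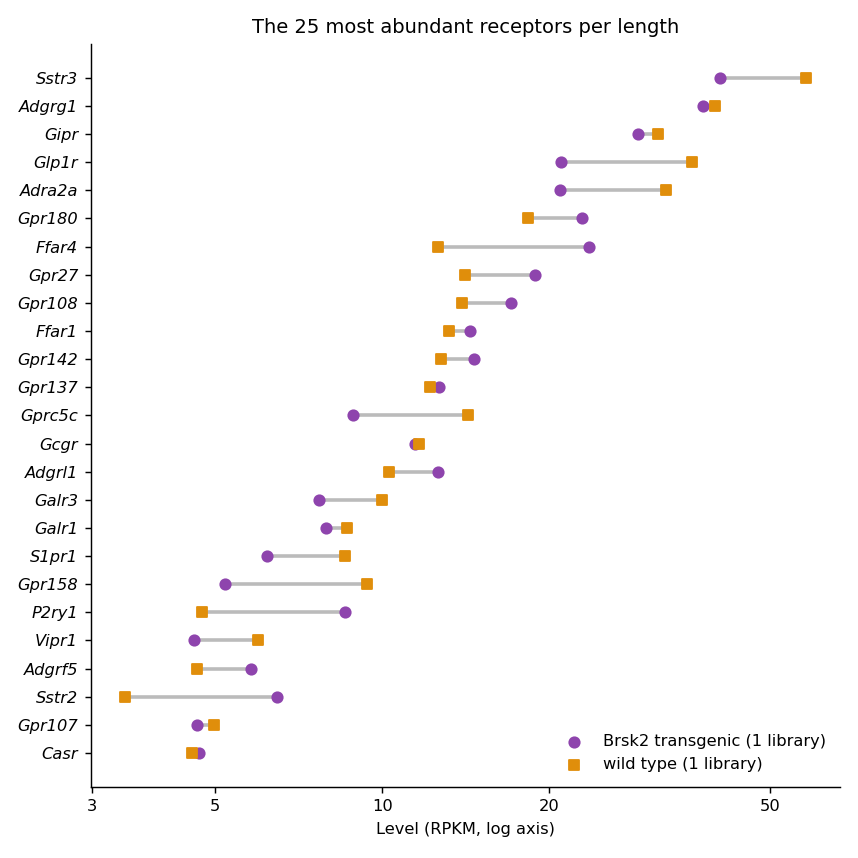
Levels of the 25 receptors with the highest mean RPKM, on a log horizontal axis, with gene lengths as the count table gives them, and with circles for the transgenic library and squares for the wild-type library (1 library each, no error bars). Glp1r, Adra2a and Sstr3 lie further left in the transgenic library, and Ffar4, P2ry1 and Sstr2 further right.

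The secretin-type peptide receptors bind the incretin hormones, glucagon and related peptides and signal mainly through Gs. Of 5 measured, 1 was lower, 0 were higher and 4 were neither, with a median log2 ratio of -0.12. Glp1r (ENSMUSG00000024027, chr17:30901867-30936510; coordinates of genes are those of the count table, taken as GRCm38), the receptor for GLP-1 on beta cells, had 530 reads or 31.1 CPM in the transgenic library and 1077 reads or 53.5 CPM in the wild-type library, a ratio of 0.580 [0.522, 0.645]. Gipr, the receptor for the other incretin hormone, had 1716 reads or 101 CPM in the transgenic library and 2204 reads or 109.5 CPM in the wild-type library, a ratio of 0.918 [0.862, 0.979]. The interval of Glp1r lay wholly below that of Gipr. Gcgr, the glucagon receptor, had 30.0 CPM transgenic and 30.5 CPM wild type, a ratio of 0.985 [0.874, 1.11]. Vipr1, which binds VIP and PACAP, had 26.6 CPM transgenic and 34.6 CPM wild type, a ratio of 0.767 [0.680, 0.864] that did not pass 1.5-fold. Adcyap1r1, the PACAP receptor, had only 33 transgenic and 34 wild-type reads. The 10 beta cell markers had ratios from 0.392 for Ucn3 to 1.37 for Nkx6-1, with a median of 0.609 and Pdx1 at 1.05 [0.981, 1.13]. Their ratio of sums, 0.761, rested mostly on Ins2, at 0.800. The part of beta cells in the receptor values was not tested.

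Within this class the order of the incretin receptors differed between the libraries. Gipr made up 43.6% and Glp1r 31.7% of the summed RPKM of the 5 receptors in the transgenic library, against 36.8% and 42.3% in the wild-type library. The quotient of Gipr over Glp1r was 1.38 in the transgenic and 0.870 in the wild-type library, and that of Gcgr over Glp1r was 0.545 in the transgenic and 0.321 in the wild-type library. These quotients do not depend on how the libraries were scaled. They do depend on gene length: the count table gives 1480 bases for Glp1r, while its exons in GENCODE M21 cover 5811 bases. With the same reads divided by that length, Glp1r would stand below Gipr in both libraries. Whether reads over all of these exon bases were counted is not known, so the order is not settled.

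Among the other peptide receptors, Sstr2 was higher and no receptor was called lower. Of 15 genes with such names 9 were measured: 1 was higher, 0 were lower and 8 were neither, with a median log2 ratio of 0.04. Somatostatin receptors couple to Gi and restrain hormone secretion. Sstr2 (ENSMUSG00000047904, chr11:113619342-113626028), the main form of alpha cells in mouse islets, had 236 reads or 13.8 CPM in the transgenic library and 148 reads or 7.36 CPM in the wild-type library, a ratio of 1.88 [1.53, 2.33]. Sstr3 (ENSMUSG00000044933, chr15:78537008-78544685), which sits in the primary cilium of beta cells, had 2993 reads or 175 CPM in the transgenic library and 5061 reads or 252 CPM in the wild-type library, a ratio of 0.698 [0.667, 0.730] that fell short of 1.5-fold with TMM factors and passed it when scaled to granule genes. The interval of Sstr2 lay above 1 and that of Sstr3 below it. Sstr3 made up 85.6% and Sstr2 13.6% of the summed somatostatin receptor RPKM in the transgenic library, against 94.1% and 5.55% in the wild-type library. The quotient of Sstr3 over Sstr2 was 6.29 transgenic and 17.0 wild type. Alpha cell markers had ratios from 1.32 to 1.78, with a median of 1.47, below the ratio of Sstr2. Beta cell markers ran from 0.392 to 1.37, with a median of 0.609, below the ratio of Sstr3. The part of these cell types in the result was not tested. Sstr1 had 12 transgenic and 8 wild-type reads and Sstr5 had 1 transgenic and 2 wild-type reads. Sstr4 had 0 in both, which allows up to 3 reads, or 0.176 CPM transgenic and 0.149 CPM wild type.

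None of the galanin receptors was called. Galr1 had 22.7 CPM transgenic and 24.8 CPM wild type, a ratio of 0.919 [0.803, 1.05]. Galr3 had 9.56 CPM transgenic and 12.4 CPM wild type, a ratio of 0.769 [0.627, 0.941], and 29.2% of its exon bases are shared with Gcat, to which 0 transgenic and 3 wild-type reads were assigned. Among receptors for other peptides the reads were fewer. Avpr1b, the vasopressin receptor that couples to Gq, had 113 transgenic and 101 wild-type reads, a ratio of 1.32 [1.00, 1.74]. Ghsr, the ghrelin receptor of delta cells, had 53 transgenic and 87 wild-type reads, a ratio of 0.719 [0.501, 1.02]. Of the receptors for neuropeptide Y and pancreatic polypeptide, Npy1r alone was measured, with 7 transgenic and 3 wild-type reads.

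**Figure D3:**
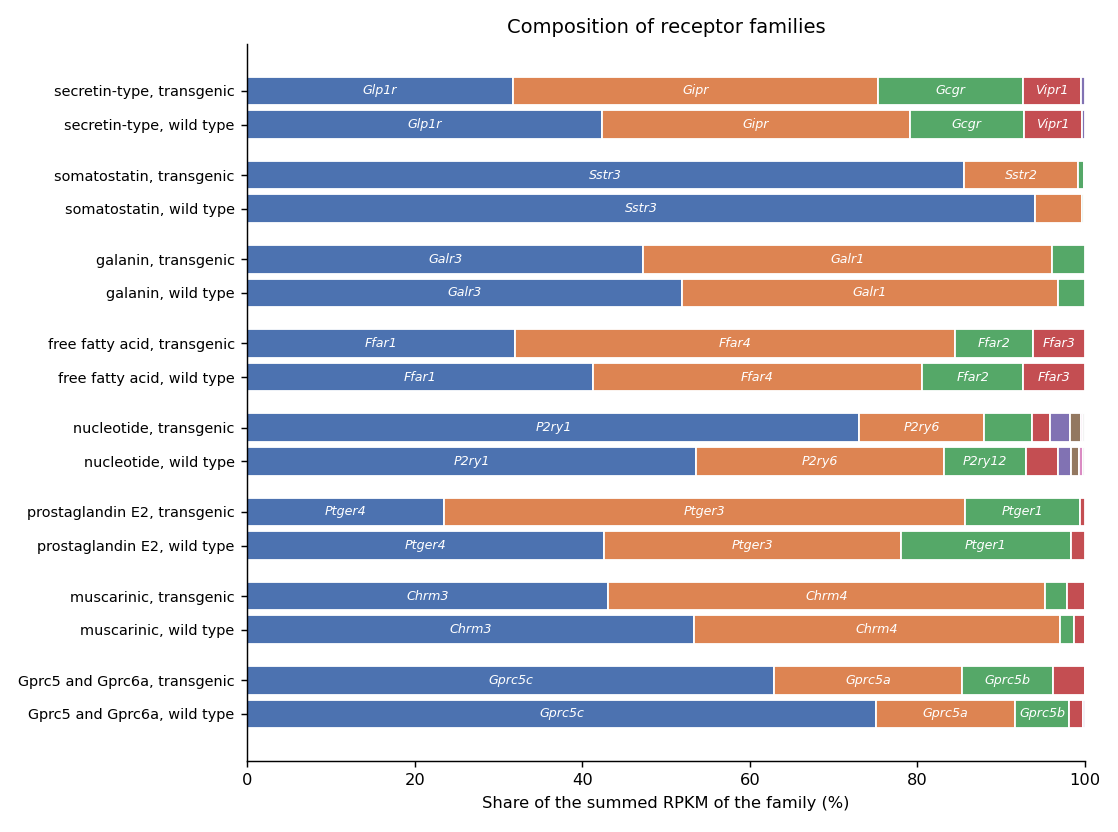
Share of each receptor in the summed RPKM of its family in percent, with the transgenic library above the wild-type library in each pair of bars. Sstr2, Ffar4, P2ry1 and Ptger3 take larger shares in the transgenic library, and Glp1r, Chrm3 and Gprc5c smaller ones.

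Among receptors for transmitters of the autonomic nervous system, the most abundant adrenergic and muscarinic receptors by reads were both lower. Of 29 genes named as adrenergic, serotonin, muscarinic or dopamine D2 receptors 11 were measured, and 2 were lower, 0 higher and 9 neither. Adra2a (ENSMUSG00000033717, chr19:54045182-54048982), the alpha-2A adrenergic receptor through which catecholamines inhibit insulin release, had 1355 reads or 79.4 CPM in the transgenic library and 2487 reads or 124 CPM in the wild-type library, a ratio of 0.643 [0.601, 0.687]. Chrm3, the muscarinic receptor through which acetylcholine strengthens insulin secretion, had 290 reads or 17.0 CPM in the transgenic library and 535 reads or 26.6 CPM in the wild-type library, a ratio of 0.639 [0.552, 0.739]. These receptors act in opposite directions on insulin secretion and had ratios within each other's intervals. Chrm4, a muscarinic receptor coupled to Gi, had 81 transgenic and 101 wild-type reads, a ratio of 0.946 [0.697, 1.28]. Adra2a alone made up 91.7% of the summed adrenergic receptor RPKM in the transgenic and 95.3% in the wild-type library. The 7 members of this class with under 100 reads had between 7 and 32 transgenic and between 4 and 37 wild-type reads. With these genes the class had a median log2 ratio of 0.33, while the 4 members with at least 100 reads had a median of -0.36. Drd2, the dopamine D2 receptor, had 4 transgenic and 3 wild-type reads and was not a member.

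Receptors for nutrients and ions included both Ffar4 and Gpr119 among the higher genes. Of 15 named for fatty acids, amino acids, calcium, protons and related ligands 12 were measured, and 2 were higher, 1 was lower and 9 were neither, with a median log2 ratio of 0.16. All 8 with at least 100 reads had ratios above 1 with TMM factors, while Casr and Gpr4 lay below 1 when scaled to granule genes. Ffar4 (ENSMUSG00000054200, chr19:38097079-38114263), known as GPR120, a receptor for long-chain fatty acids that mouse delta cells express, had 561 reads or 32.9 CPM in the transgenic library and 353 reads or 17.5 CPM in the wild-type library, a ratio of 1.87 [1.64, 2.15]. Gpr119, a Gs-coupled receptor for lipid amides, had 147 transgenic and 112 wild-type reads, a ratio of 1.55 [1.20, 2.0]. Ffar1 (GPR40), the long-chain fatty acid receptor of beta cells, had 60.0 CPM transgenic and 55.1 CPM wild type, a ratio of 1.09 [0.999, 1.19]. The interval of Ffar4 lay wholly above that of Ffar1. Ffar4 made up 52.5% and Ffar1 32.0% of the summed fatty acid receptor RPKM in the transgenic library, against 39.3% and 41.2% in the wild-type library. The 7 markers of delta, gamma and epsilon cells had ratios from 1.15 to 1.65. Among them, Sst was at 1.31 [1.30, 1.33], Hhex at 1.37 [1.14, 1.64] and Rbp4 at 1.46 [1.39, 1.53]. The part of these cells in the ratio of Ffar4 was not tested.

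The short-chain fatty acid receptors Ffar2 and Ffar3 had ratios of 1.08 [0.887, 1.32] and 1.18 [0.868, 1.60]. Casr, the calcium-sensing receptor, had 22.0 CPM transgenic and 21.4 CPM wild type, a ratio of 1.03 [0.896, 1.19]. Gpr142, a receptor for tryptophan, had a ratio of 1.15 [0.972, 1.36]. The intervals of these 4 genes all held 1. Gpr132, with 6 transgenic and 19 wild-type reads, was called lower on these few reads.

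Receptors for lipid mediators held members called in both directions. Of 15 prostaglandin E2, sphingosine 1-phosphate and lysophosphatidic acid receptors 10 were measured, and 2 were higher, 2 lower and 6 neither, with a median log2 ratio of -0.36. Ptger3, a prostaglandin E2 receptor coupled to Gi, had 109 transgenic and 69 wild-type reads, a ratio of 1.86 [1.37, 2.56]. Ptger4, a prostaglandin E2 receptor coupled to Gs, had 48 transgenic and 97 wild-type reads, a ratio of 0.584 [0.404, 0.833]. The intervals of Ptger3 and Ptger4 did not overlap. Ptger3 made up 62.2% of the summed RPKM of the prostaglandin E2 receptors in the transgenic and 35.4% in the wild-type library. Lpar6, a lysophosphatidic acid receptor, had 222 transgenic and 163 wild-type reads, a ratio of 1.61 [1.31, 1.98]. S1pr1, a sphingosine 1-phosphate receptor of endothelial cells and lymphocytes, had 322 transgenic and 525 wild-type reads, a ratio of 0.723 [0.628, 0.833]. Its relative S1pr3 had 49 transgenic and 87 wild-type reads, a ratio of 0.664 [0.458, 0.953], and was no longer called when library totals replaced TMM factors.

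Of 10 nucleotide receptors 6 were measured, and 1 was higher, 0 lower and 5 neither, with a median log2 ratio of 0.22. P2ry1 (ENSMUSG00000027765, chr3:61002795-61008982), the ADP receptor that couples to Gq, had 626 reads or 36.7 CPM in the transgenic library and 408 reads or 20.3 CPM in the wild-type library, a ratio of 1.81 [1.60, 2.06]. P2ry1 shares 23.1% of its exon bases with the predicted gene Gm37035 on the opposite strand, to which 12 transgenic and 2 wild-type reads were assigned. P2ry6, the UDP receptor, had 86 transgenic and 152 wild-type reads, a ratio of 0.667 [0.506, 0.875] just short of the call. P2ry1 made up 73.1% and P2ry6 14.9% of the summed P2Y receptor RPKM in the transgenic library, against 53.6% and 29.7% in the wild-type library.

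**Figure D4:**
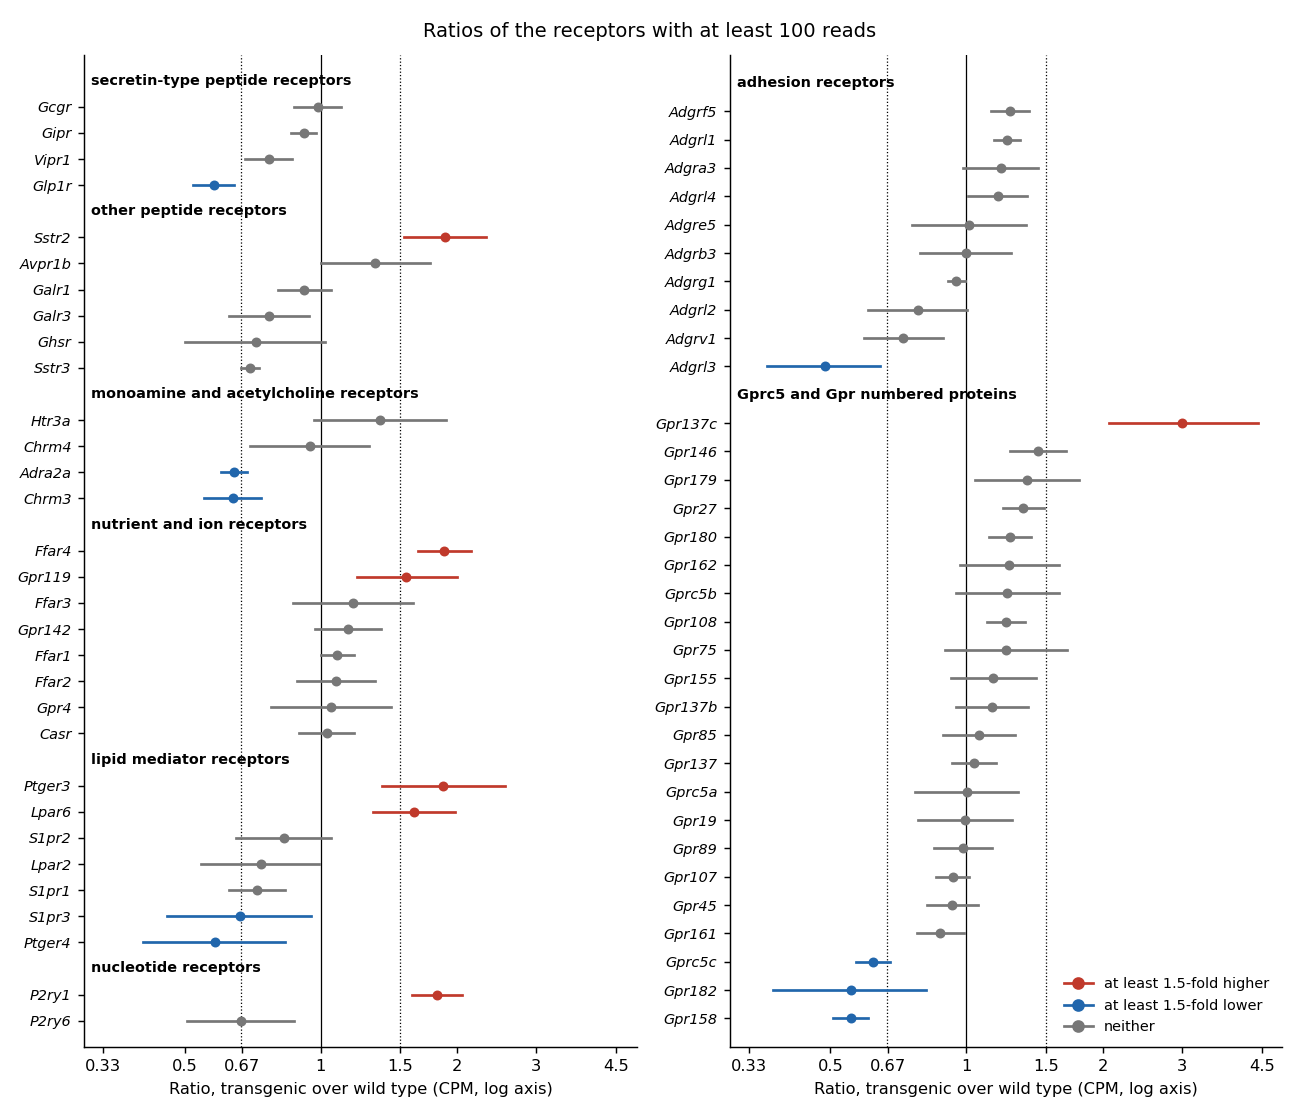
Ratio of transgenic over wild type with its exact 95% counting interval for the 63 receptors with at least 100 reads over both libraries, on a log axis, ordered by class. Dotted lines mark 1.5-fold. There are 7 receptors drawn as higher and 9 as lower, and ratios run from 2.99 for Gpr137c to 0.486 for Adgrl3.

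Adhesion receptors carry long extracellular parts that bind matrix or neighbouring cells. Of 27 with such names 18 were measured, and 2 were lower, 0 higher and 16 neither, with a median log2 ratio of -0.04. Adgrg1 (GPR56), which binds collagen III, had 3501 reads or 205 CPM in the transgenic library and 4347 reads or 216 CPM in the wild-type library, a ratio of 0.950 [0.908, 0.993]. The collagen III gene Col3a1 had 408 transgenic and 152 wild-type reads, a ratio of 3.17 [2.62, 3.84], and 6 of 10 markers of fibroblasts, stellate and mural cells, Col3a1 among them, were higher and 0 lower (147 CPM transgenic, 108 CPM wild type). Adgrl1, a latrophilin, had 108 CPM transgenic and 88.1 CPM wild type, a ratio of 1.23 [1.15, 1.31]. Its relative Adgrl3 had 70 transgenic and 170 wild-type reads, a ratio of 0.486 [0.362, 0.645]. The interval of Adgrl3 lay below those of Adgrl1 and Adgrl4 and overlapped that of Adgrl2, at 0.782 [0.607, 1.00]. Adgrv1, a very long adhesion receptor, had 163 transgenic and 265 wild-type reads, a ratio of 0.726 [0.593, 0.885]. Adgrd1 was called lower on 9 transgenic and 24 wild-type reads.

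Among the Gprc5 genes and the numbered Gpr genes, most of them without a settled ligand, 36 of 67 were measured, and 1 was higher, 4 lower and 31 neither, with a median log2 ratio of -0.005. Gprc5c (ENSMUSG00000051043, chr11:114851152-114872617), an orphan receptor, had 792 reads or 46.4 CPM in the transgenic library and 1504 reads or 74.8 CPM in the wild-type library, a ratio of 0.621 [0.569, 0.677]. The relatives Gprc5a and Gprc5b had ratios of 1.00 [0.771, 1.30] and 1.23 [0.946, 1.60], and neither interval overlapped that of Gprc5c. Gpr158 (ENSMUSG00000045967, chr2:21367542-21830547), which binds glycine and recruits the regulator RGS7 in neurons, had 726 reads or 42.6 CPM in the transgenic library and 1542 reads or 76.6 CPM in the wild-type library, a ratio of 0.555 [0.508, 0.607]. Gpr137c, of a family of lysosomal membrane proteins, had 104 transgenic and 41 wild-type reads, a ratio of 2.99 [2.07, 4.41]. Gpr180, the most abundant of this class per length and also not established as G protein-coupled, had 42.9 CPM transgenic and 34.4 CPM wild type, a ratio of 1.25 [1.12, 1.39].

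Some members are typical of cells other than endocrine ones. Gpr182, a receptor of endothelial cells, had 41 transgenic and 87 wild-type reads, a ratio of 0.556 [0.374, 0.815]. Among other receptors of endothelial cells, Adgrf5 at 1.25 [1.14, 1.37] and Adgrl4 at 1.17 [1.01, 1.36] lay above 1, while S1pr1 at 0.723 [0.628, 0.833] lay below it. Of 10 endothelial markers 0 were called, and they summed to 238 CPM transgenic and 263 CPM wild type. Gpr37l1, a receptor of glial cells, had 25 transgenic and 58 wild-type reads, a ratio of 0.508 [0.305, 0.826]. Of 8 Schwann and neural markers 2 were higher and 2 lower, with a median log2 ratio of 0.01. Their sums of 125 CPM transgenic and 173 CPM wild type rested mostly on Mbp, which had 104 CPM transgenic and 157 CPM wild type. Adgre1, which encodes the macrophage antigen F4/80, had 42 transgenic and 39 wild-type reads, and 1 of 9 measured macrophage and dendritic cell markers was higher and 0 lower (107 CPM transgenic, 92.2 CPM wild type). Receptors of lymphocytes such as Gpr183, with 10 transgenic and 7 wild-type reads, were near the read minimum, while 3 of 8 B and plasma cell markers were higher and 0 lower (138 CPM transgenic, 66.2 CPM wild type). The part of these cells in the receptor ratios was not tested.

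At the read minimum, the members with the fewest reads were Npy1r, with 10 in all, followed by Htr2b, with 7 transgenic and 4 wild-type reads, and Gpr3, with 5 transgenic and 7 wild-type reads. Just below it, at 9 reads over both libraries, were Adgra1, Gpr18, Gpr6 and Htr3b. Of the 76 receptors below the minimum, 22 had 0 reads in both libraries, among them Adrb3, Chrm5, Npy2r, P2ry4 and S1pr5. The 44 members with under 100 reads included 3 that were called lower and 0 higher, and their ratios ran from 0.372 to 2.75.

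Of 27 listed ligands of these receptors and enzymes that make them 22 were measured, and 7 were higher, 1 was lower and 14 were neither, beside 7.78% higher and 5.89% lower among all genes. The median log2 ratio of the list was 0.50. Gal, the galanin precursor, had 122 reads or 7.15 CPM in the transgenic library and 26 reads or 1.29 CPM in the wild-type library, a ratio of 5.53 [3.60, 8.81], while Galr1, Galr2 and Galr3 were neither. The precursors of glucagon (Gcg) and pancreatic polypeptide (Ppy) had ratios of 1.59 [1.59, 1.60] and 1.65 [1.64, 1.67]. Slc18a3, the vesicular acetylcholine transporter, had 73 transgenic and 47 wild-type reads, a ratio of 1.83 [1.25, 2.70]. Chat, which makes acetylcholine, was called higher on 13 transgenic and 5 wild-type reads. Slc18a3 lies within the span of Chat on the same strand, and how reads common to both were assigned was not given. Th, which makes the precursor of catecholamines, had 324 transgenic and 1096 wild-type reads, a ratio of 0.349 [0.307, 0.395]. The somatostatin gene Sst, at 1.31 [1.30, 1.33], did not pass 1.5-fold. Gcg, Ppy and Sst are themselves markers of alpha, gamma and delta cells.

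Counts of G protein subunits stand beside 7.78% higher and 5.89% lower among all genes. Of 16 listed alpha subunits 14 were measured, and 2 were lower and 0 higher, with a median log2 ratio of -0.17. Gnai3, an alpha subunit of Gi, had 2620 reads or 154 CPM in the transgenic library and 4643 reads or 231 CPM in the wild-type library, a ratio of 0.666 [0.634, 0.698] that narrowly passed 1.5-fold. Gnai2, the most abundant alpha subunit per length, was at 0.869 [0.834, 0.905], and Gnas, the subunit of Gs, at 1.02 [0.965, 1.09]. The Gq family subunits Gnaq and Gna11 were at 0.957 [0.889, 1.03] and 0.949 [0.886, 1.02]. The other lower alpha subunit, Gnat1, had 8 transgenic and 28 wild-type reads. Of 17 listed beta and gamma subunits 14 were measured, and 2 were higher and 0 lower, with a median of 0.16. These were Gnb4 at 1.61 [1.29, 2.0], and Gng3 with 34 transgenic and 20 wild-type reads, while Gnb2, the most abundant per length, was at 1.05 [1.01, 1.1].

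Of 21 listed receptor kinases, arrestins and accessory proteins 17 were measured, and 1 was lower and 1 higher, with a median log2 ratio of -0.01. Grk5, a kinase that phosphorylates active receptors and so starts their desensitisation, had 475 reads or 27.8 CPM in the transgenic library and 1291 reads or 64.2 CPM in the wild-type library, a ratio of 0.434 [0.390, 0.482]. The other widely expressed receptor kinases had intervals wholly above that of Grk5, with Grk2 at 0.974 [0.902, 1.05], Grk3 at 1.04 [0.993, 1.09] and Grk6 at 0.818 [0.728, 0.919]. Arrb1 and Arrb2, the beta-arrestins that bind phosphorylated receptors, were at 0.736 [0.594, 0.909] and 0.985 [0.883, 1.1]. Gipc2, a scaffold protein, had 73 transgenic and 41 wild-type reads, a ratio of 2.10 [1.41, 3.16], and Gprasp1, the most abundant of the list per length, was at 0.915 [0.880, 0.952]. Of 7 phospholipase C beta and IP3 receptor genes, which act after Gq, 1 was lower and 0 higher, with a median of 0.10. This was Itpr2, at 0.636 [0.518, 0.778], while Itpr3, the most abundant per length, was at 1.08 [0.995, 1.18].

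Of 96 listed receptors from families outside the naming rule 37 were measured, with a median log2 ratio of -0.02. Of these 5 were higher, 2 lower and 30 neither, beside 7.78% higher and 5.89% lower among all genes. Adora2b, an adenosine receptor coupled to Gs, had 758 transgenic and 480 wild-type reads, a ratio of 1.86 [1.66, 2.09]. Cckar, the cholecystokinin receptor of mouse acinar cells, had 191 transgenic and 89 wild-type reads, a ratio of 2.53 [1.96, 3.29], in the library where all 16 acinar markers were higher, and the part of acinar cells in it was not tested. Taar1, a trace amine receptor, was at 1.64 [1.19, 2.27]. Hrh3, with 17 transgenic and 7 wild-type reads, and Mc4r, with 12 transgenic and 3 wild-type reads, were called higher on few reads. Lower were Hcar2, the receptor for nicotinic acid and beta-hydroxybutyrate, with 177 transgenic and 481 wild-type reads at 0.434 [0.363, 0.517], and Vipr2, another receptor for VIP, with 35 transgenic and 102 wild-type reads at 0.405 [0.267, 0.600]. The intervals of Vipr1 and Vipr2 did not overlap. Of 9 endocrine granule genes 0 were called, and Chga, the most abundant, was at 1.07 [1.06, 1.07].

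**Figure D5:**
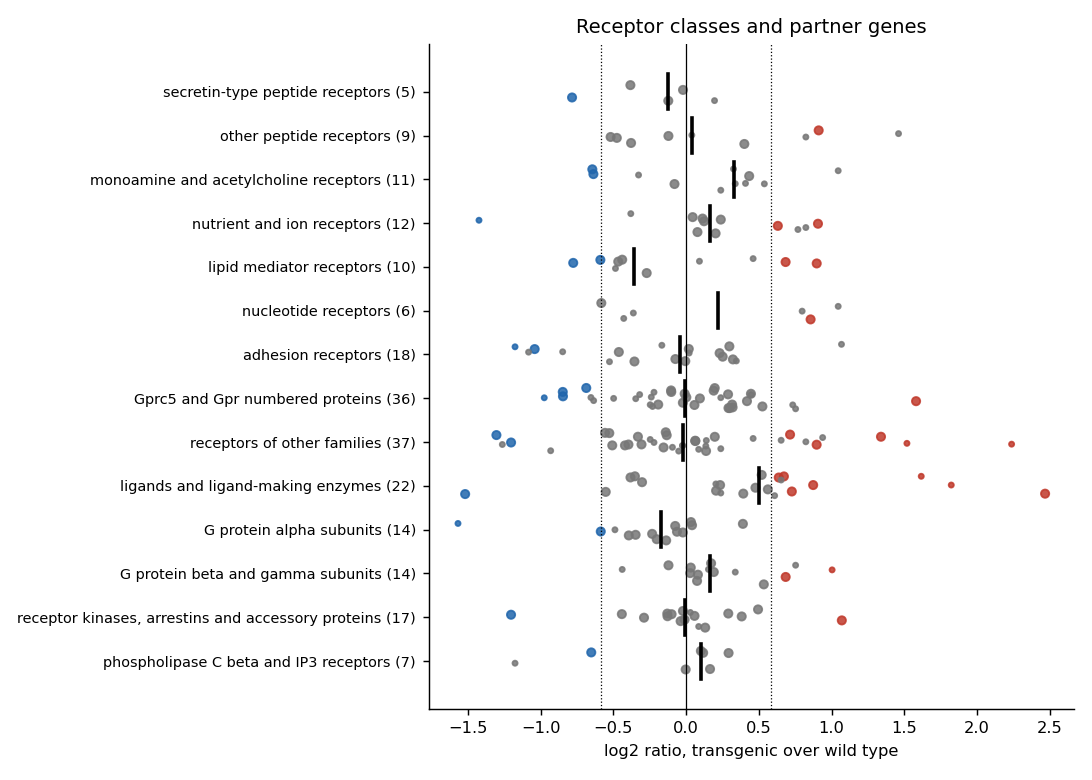
Log2 ratio of transgenic over wild type for each gene, by receptor class and by list of partner genes, with the number of genes in brackets, larger points for genes with at least 100 reads, red for higher, blue for lower, and black bars for medians. The medians run from -0.36 for lipid mediator receptors to 0.50 for ligands and ligand-making enzymes.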

How the data were processed

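The authors deposited raw read counts per Ensembl gene ID for 1 library per genotype. Library preparation from total RNA with an Illumina TruSeq kit is stated in the labels' protocols; aligner, counting program, genome build and strandedness were not given in those sources. Whether reads of overlapping genes on opposite strands were kept apart is therefore not known. The submitters' processing notes name DESeq2 1.10.1. The authors' deposited table of listed genes gives log2 fold changes. Of 54532 IDs, 54495 were found in GENCODE M21 on GRCm38, 98.3% of them with the same start and end, and the table's gene length equalled the union of exons there for 100 of the 107 members.

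Ratios were taken over genes with 10 reads or more over the pair of libraries. TMM factors came from edgeR 4.0.16 under R 4.3.3 (1.01 transgenic, 0.987 wild type). A read was worth 0.0586 CPM transgenic and 0.0497 CPM wild type. Intervals are Clopper-Pearson (SciPy 1.17.1) and cover counting error only: without molecular identifiers, reads are not independent molecules. Calculations were tested on simulated data. Members and lists were chosen with earlier results of these data known. Named genes were members called with at least 50 reads, the most abundant and the 2 most different members of each class, the receptors given by name, and called genes of the other lists with at least 100 reads, at most 5 a list, with the most abundant one; genes named beyond these were chosen after their values were seen. Alternatives were DESeq2 1.42.0 size factors, library totals, granule gene scaling, TMM factors computed after leaving out hormone genes and acinar markers, other read minimums, length centring and other fold rules.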

Additional observations from a re-analysis of the deposited data

How the results depend on the processing

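With 1 library per genotype no setting measures the spread between animals, and no paired analysis was possible because each group has 1 sample and no test was made. The counts of 7 higher and 12 lower receptors became 1 and 3 with a 2-fold rule, and 4 and 3 with the bound of the interval required past 1.5-fold, by construction. Under the other settings they stayed within 5 to 7 higher and 9 to 14 lower; the restrictions to genes established as G protein-coupled and to at least 100 reads were added after seeing the data. All 7 higher receptors were shared under DESeq2 size factors, library totals, length centring and TMM factors that left out hormone genes and acinar markers. Of the 12 lower receptors, library totals lost Adgrd1 and S1pr3, length centring lost Adgrd1, and a minimum of 50 reads left out Adgrd1 and Gpr132. P2ry6 was gained with DESeq2 size factors, length centring and granule gene scaling. The median log2 ratio of the members ran from -0.09 with granule gene scaling to 0.06 with library totals. Class medians of secretin-type and lipid mediator receptors stayed below 0 and that of nutrient receptors above 0, while those of the other classes crossed 0. Of 51 named genes, 11 left their counting interval with granule gene scaling, 3 with library totals and 2 with length centring, and no called gene changed direction. Receptors with few reads are limited by depth: Npy1r, with 10 reads, had an interval from 0.628 to 16.5.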

Other observations

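Gpr137b, a member with 232 transgenic and 240 wild-type reads, has a transcribed pseudogene copy, Gpr137b-ps, that was assigned 715 transgenic and 856 wild-type reads, a ratio of 0.985 [0.891, 1.09]. How reads common to both copies were assigned was not given, and the level of Gpr137b is uncertain. Besides Glp1r, the gene lengths of Adra2a and Adrb1 in the count table differed from the GENCODE M21 exon union. With the same reads and the GENCODE lengths, Adra2a would stand at 16.4 RPKM transgenic and 25.6 RPKM wild type. Adrb1 would stand at 0.347 RPKM transgenic and 0.294 RPKM wild type. Whether reads over all exon bases of these genes were counted is not known. Of the 107 members, 36 share exon bases with another annotated gene, and 7 share over 20% of theirs.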
